A study of Mus musculus with 9 samples.

Results

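B2 and B4 elements are short interspersed elements (SINEs) of the mouse genome, and 8706 of their single copies were listed in a table of repeat expression from mouse embryonic stem cells (ESCs). The copies were taken by their annotation as SINE with the family B2 or B4, and they make up 22.7% of all 38385 repeat copies listed. The B2 family held 5300 copies under 5 names, namely B2_Mm1a with 660, B2_Mm1t with 610, B2_Mm2 with 1260, B3 with 1960 and B3A with 810. The B4 family held 3406 copies under 4 names, namely B4 with 386, B4A with 661, ID_B1 with 1381 and RSINE1 with 978. The 7289 listed copies of the related B1 elements, annotated as Alu, serve as a comparison, together with all listed copies.

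B2 elements descend from a tRNA gene and carry an internal promoter for RNA polymerase III, and B4 elements join a tRNA-like head to a B1-like part. SINEs encode no protein and are copied by the machinery of LINE-1 elements. Many copies lie within genes and are transcribed as part of the host mRNA by RNA polymerase II. B2-type copies carry many CTCF motifs in mouse, and DNA methylation is one of the marks that keep young transposable elements silent.

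The cells were J1 ESCs of wild type (WT), *Dnmt1*-/- ESCs (1KO), and 1KO+1CI ESCs. The last are *Dnmt1*-/- cells carrying a zeocin-selected transgene for DNMT1 with the change C1229S, which removes its catalytic activity, driven by the CAG promoter. The 1KO+1CI columns bear a number that is presumably that of 1 clone. Each line was sequenced as undifferentiated ESCs grown on mouse embryonic fibroblast feeders with serum and LIF (day 0), and at days 2 and 4 of differentiation without LIF, through embryoid bodies and then adherent culture. There was 1 library for each of the 9 combinations of line and day. A difference between 2 libraries therefore has no replicate error. A line effect common to the 3 days was tested against the spread that line and day do not jointly explain, which is not the spread between cultures.

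The RNA was selected with oligo(dT), so transcripts without a poly(A) tail were measured poorly, and a copy's own transcripts cannot be told apart from host mRNA that contains it. The values are FPKM, the reads per kilobase of a copy scaled to the library size. Reads recovered from the FPKM steps put the libraries at 20400000 to 28200000 counted reads, if 1 step is 1 read. A copy was 167 bases long in the median and had a median of 6 reads in a library, for which the 95% Poisson interval runs from 2.20 to 13.1 reads, and 30.5% of the values rested on at most 3 reads. These intervals cover counting error only. Copies of 1 name can be alike in sequence, to a degree that may differ between names and was not measured. How reads with several alignments were counted was not stated in the sources used here. The value of a single copy is therefore uncertain and a mean over a name less so. Whether this weighs equally on all names was not tested. The copies were listed without genomic positions or sequences. No listed copy had a value of 0 in any library, and the lowest B2 or B4 value was 0.141 FPKM. A copy without reads in some library is thus not among those listed. Copies silent in 1 line and expressed in another could not be seen.

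The libraries matched their genotypes at *Dnmt1*, the maintenance DNA methyltransferase. Its level in WT cells was 74.0, 80.4 and 48.5 FPKM at days 0, 2 and 4. In 1KO cells it was 13.7, 17.4 and 12.3 FPKM, and in 1KO+1CI cells 315, 129 and 158 FPKM, where reads of the transgene count as well. In limma *Dnmt1* fell by 2.13 ± 0.27 on the log2(FPKM + 1) scale from WT to 1KO (SE, adjusted p = 0.016), and rose by 3.61 ± 0.27 from 1KO to 1KO+1CI (adjusted p = 0.014). Feeder fibroblast markers were not at 0. The 9 measured of 10 markers summed to 95.6 FPKM in WT, 187 FPKM for 1KO, and 217 FPKM for 1KO+1CI at day 0, and to between 13.2 and 30.2 FPKM at days 2 and 4. The stem cell markers *Pou5f1*, *Nanog*, *Sox2* and 5 others summed to 1689 to 2059 FPKM at day 0. At day 2 the sums were 1469 to 2046 FPKM and at day 4 they were 1193 to 1575 FPKM. *Pou5f1* was the largest part of each sum. By day 4 limma called 4 of the 8 as lower and 1 as higher. *Klf4*, *Zfp42*, *Esrrb* and *Sox2* fell by 4.44, 3.94, 3.77 and 1.47, and *Lin28a* rose by 0.38. In such bulk samples, fewer cells of a type and less RNA per cell cannot be told apart.

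B2_Mm1a, a mouse-specific B2 name, exceeded its WT level in 1KO cells on all 3 days, while 7 of the other 8 names did not share this pattern. The mean over its 660 copies in WT cells was 2.20, 2.18 and 2.10 FPKM at days 0, 2 and 4. In 1KO cells it was 3.03, 2.95 and 2.54 FPKM. The 3 WT libraries lay below the 3 1KO libraries without overlap, and the ratio of 1KO to WT was 1.38, 1.35 and 1.21 in the order of the days. In 1KO+1CI cells the mean was 2.40, 2.90 and 2.34 FPKM. At day 0 it was thus nearer to WT, at day 2 it was nearly that of 1KO, and at day 4 it lay between the 2 lines. The recovered reads of B2_Mm1a copies ran from 4438 in the WT to 8362 in the 1KO library of day 0, in sums over the name. Their 95% Poisson intervals were 4308 to 4571 and 8184 to 8543 reads. These sums are not scaled to depth, and the 1KO library was the deeper, at 28200000 against 20700000 reads. The FPKM ratio of 1.38 at day 0 takes depth into account.

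The line effect on B2_Mm1a did not pass the test over all repeat names. In limma it was 0.28 ± 0.09 on the scale of log2(mean FPKM + 1) from WT to 1KO (SE, 95% interval 0.06 to 0.50), with a raw p of 0.020 and an adjusted p of 0.34 by the Benjamini-Hochberg method over 1042 names. It was positive at 3 of 3 days. Among the 68 names with at least 100 copies this was the fourth highest fitted difference, after IAPEz-int, RMER15 and MERVL-int. From 1KO to 1KO+1CI the fitted difference of B2_Mm1a was −0.12 ± 0.09 (adjusted p = 0.96), the lowest but 1 of the same 68 names. Both comparisons use the 1KO libraries, so a high 1KO value enters them with opposite signs. None of the 9 names was called from WT to 1KO or from 1KO to 1KO+1CI, and at a raw p under 0.05 the counts were 1 and 0 of 9, beside 107 and 63 of the 1042 names. Over all 1042 names limma called 0.096% as higher and 0.096% as lower from WT to 1KO, and 0% in each direction from 1KO to 1KO+1CI.

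B2_Mm1t, the name closest to B2_Mm1a in its label, was also higher in 1KO at each day, by less. Its mean was 1.96, 2.00 and 1.71 FPKM in WT cells and 2.09, 2.47 and 1.90 FPKM in 1KO cells. In 1KO+1CI cells it was 1.90, 2.40 and 1.74 FPKM. The WT and 1KO ranges overlap across days, and the largest ratio of 1KO to WT was 1.24, at day 2. The fitted difference from WT to 1KO was 0.13 ± 0.08 with an adjusted p of 0.67, and its interval, from −0.08 to 0.33, includes 0.

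**Figure D1:**
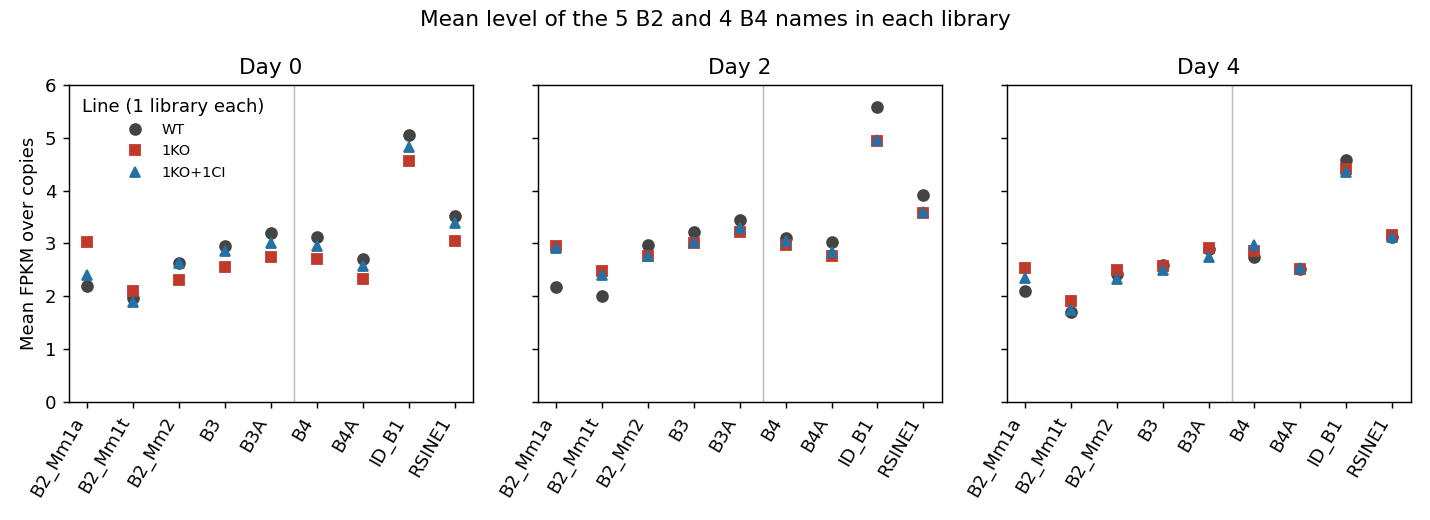
Mean FPKM over the copies of each of the 9 names (vertical axis, linear, from 0), by name (horizontal axis), in 3 panels for days 0, 2 and 4, with 1 point per library and a vertical line between the B2 and the B4 names. B2_Mm1a is the name for which the 1KO point (red square) stands farthest above the WT point (grey circle), at 3.03 against 2.20 FPKM on day 0, while ID_B1 has the highest level in every library.

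B2_Mm2, also a mouse-specific name, did not follow. Its mean was 2.63, 2.97 and 2.43 FPKM in WT cells and 2.31, 2.76 and 2.49 FPKM in 1KO cells. It was thus lower in 1KO at days 0 and 2 and level with WT at day 4. In 1KO+1CI cells B2_Mm2 was at 2.62, 2.76 and 2.33 FPKM, so its value matched WT at day 0 and 1KO at day 2.

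The older names of the B2 family, B3 and B3A, had WT means of 2.95, 3.20 and 2.58 FPKM for B3 and 3.19, 3.44 and 2.90 FPKM for B3A. In 1KO cells B3 was at 2.55, 3.01 and 2.58 FPKM and B3A at 2.73, 3.21 and 2.92 FPKM. Both were lower in 1KO at day 0 and at nearly the same level as WT at day 4. In 1KO+1CI cells B3 was at 2.86, 3.03 and 2.49 FPKM and B3A at 3.01, 3.28 and 2.75 FPKM.

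In the B4 family ID_B1 was the highest of the 9 names in every library. Its mean was 5.04, 5.59 and 4.57 FPKM in WT and 4.57, 4.93 and 4.40 FPKM in 1KO cells. In the 1KO+1CI libraries it was 4.82, 4.96 and 4.35 FPKM. Its ratio of 1KO to WT was 0.906, 0.883 and 0.963, below 1 at each day. RSINE1 was at 3.51, 3.92 and 3.13 FPKM in WT and at 3.05, 3.57 and 3.16 FPKM in 1KO cells. B4 and B4A lay between 2.32 and 3.12 FPKM in all 9 libraries.

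For the 7 names other than B2_Mm1a and B2_Mm1t, the ratio of the 1KO to the WT mean lay between 0.857 and 0.906 at day 0, between 0.883 and 0.959 at day 2, and between 0.963 and 1.04 at day 4. All 7 were below 1 at days 0 and 2, and 4 of the 7 were above 1 at day 4. Their fitted differences from WT to 1KO lay between −0.10 and −0.05 (adjusted p from 0.68 to 0.85), and those from 1KO to 1KO+1CI between 0.02 and 0.06 (adjusted p from 0.98 to 1.00). Within each library, the mean of B2_Mm1a divided by that of the 7436 copies of these 7 names was 0.651, 0.588 and 0.692 in WT, and 1.02, 0.868 and 0.840 in 1KO cells. In 1KO+1CI cells the quotient was 0.738, 0.847 and 0.795. This quotient does not depend on how a library was scaled, and the 1KO and 1KO+1CI libraries all lay above the 3 WT libraries. The 1KO+1CI line was made from 1KO cells, so these 2 lines are not independent. The mean of the 7 names was itself lower in 1KO, at 2.96 against 3.37 FPKM in WT on day 0. It was 3.40 against 3.71 FPKM on day 2 and 3.02 against 3.03 FPKM on day 4. For B2_Mm1t the quotient was 0.580, 0.538 and 0.563 in WT, 0.708, 0.726 and 0.629 in 1KO, and 0.584, 0.702 and 0.591 in 1KO+1CI cells. Because these names were set apart after their values were known, the quotients are given with no test.

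**Figure D2:**
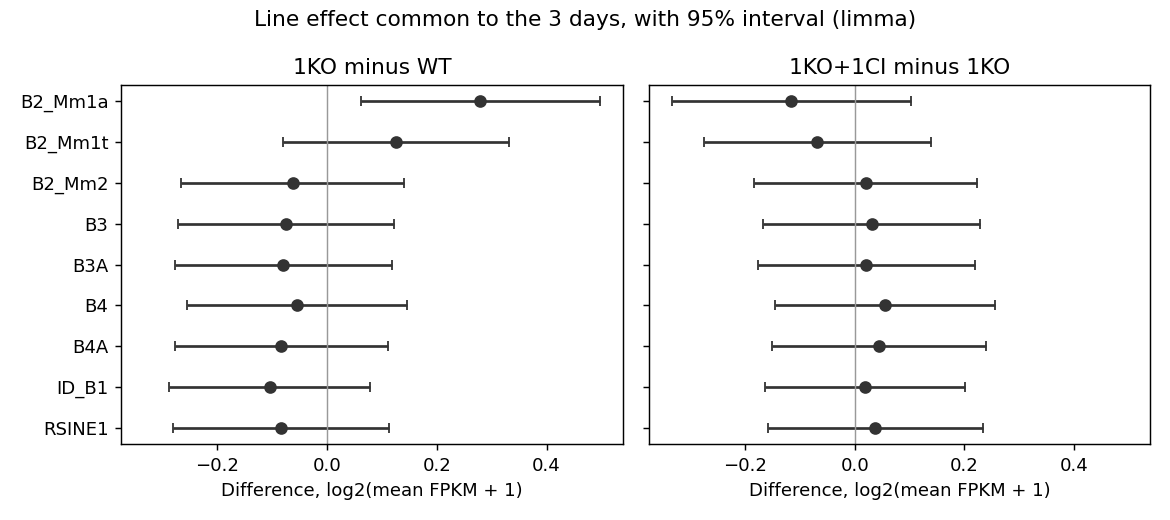
Fitted line effect of each name (horizontal axis, difference in log2(mean FPKM + 1), with its 95% interval as a bar) for 1KO minus WT on the left and 1KO+1CI minus 1KO on the right, 9 libraries in the fit. The interval of B2_Mm1a in 1KO minus WT, from 0.06 to 0.50, is the only one of the 18 that leaves out 0, and its adjusted p is 0.34.

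The pattern of B2_Mm1a was spread over many of its copies. From WT to 1KO, 442 of its 660 copies were higher at day 0 (67.0%), 478 at day 2 (72.4%) and 377 at day 4 (57.1%). Among all listed copies the shares were 42.1%, 47.0% and 49.7%, and among the 7 names they lay between 34.3% and 53.9% over the 3 days. The median difference over B2_Mm1a copies was 0.26, 0.37 and 0.14 on the log2(FPKM + 1) scale, where B2_Mm1t had 0.02, 0.25 and 0.11. The quartiles of the B2_Mm1a differences at day 0 were −0.14 and 0.67, so single copies differed widely.

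Copies that kept 1 direction at all 3 days were counted next. Of the B2_Mm1a copies, 193 (29.2%) were higher in 1KO at all 3 days, against 12.4% of all listed copies, and 34 (5.15%) were lower at all 3 days, against 18.4%. For B2_Mm1t the shares were 19.3% higher and 7.87% lower. The 7 names had between 8.11% and 11.6% higher and between 14.8% and 18.7% lower, each near or below the share of all listed copies. From 1KO to 1KO+1CI, 143 copies of B2_Mm1a (21.7%) were lower at all 3 days, against 11.6% of all listed copies, and 53 (8.03%) were higher, against 15%. The corresponding shares of B2_Mm1t were 18.4% and 9.34%, and the comparison again shares its 1KO libraries with the one before. Copies are not replicates of a condition and may share reads, and no test was made on these shares.

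**Figure D3:**
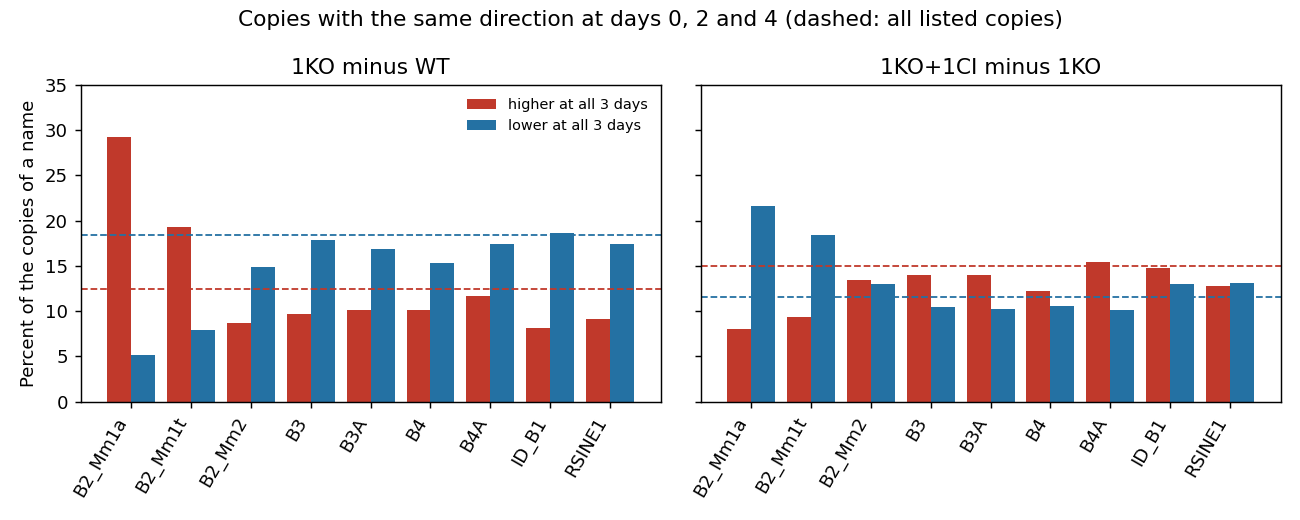
Percent of the copies of each name (vertical axis, from 0) that were higher (red bars) or lower (blue bars) at days 0, 2 and 4 alike, for 1KO minus WT on the left and 1KO+1CI minus 1KO on the right; dashed lines give the same shares over all 38385 listed copies. B2_Mm1a has 29.2% higher and 5.15% lower in 1KO, and B2_Mm1t 19.3% and 7.87%, while in 1KO minus WT the other 7 names have more copies lower than higher.

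The median of B2_Mm1a was higher in 1KO in each class of level and of length. B2_Mm1a copies were split into 3 level classes by their mean FPKM over the 9 libraries, with 220 copies each. The median difference from WT to 1KO at day 0 was 0.15 in the lowest class, 0.28 in the middle and 0.35 in the highest, and at day 2 it was 0.42, 0.36 and 0.34. At day 4 the classes had 0.09, 0.18 and 0.13. Length was known for the 637 copies with recovered reads. The 318 copies over the median length differed by 0.30, 0.35 and 0.13, and the 319 at or under it by 0.25, 0.42 and 0.14. All classes come from the same single libraries and their copies may share reads, so the classes are not independent of each other. The 10 copies of highest level held 17.1% of the summed level of B2_Mm1a, and without them the ratio of 1KO to WT was 1.37, 1.42 and 1.17. B1_Mm, a mouse-specific B1 name with 380 copies, had ratios of 0.981, 0.970 and 0.973 over the same days.

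Differences past 2-fold in FPKM + 1, that is, over 1 on the log2(FPKM + 1) scale, were counted in each pair of libraries. For a copy of low level this takes more than a 2-fold change in FPKM itself. From WT to 1KO at day 0, 11.8% of B2_Mm1a copies were past 2-fold higher, against 4.9% of all listed copies, and 2.12% were past it lower, against 6.82%. At day 2 the shares of B2_Mm1a were 15.2% higher and 2.42% lower, against 5.74% and 5.09% of all listed copies. At day 4 they were 6.82% and 2.27%, against 6.77% and 3.76%, so the share above 2-fold equalled that of all copies. Taken whole, the B2 family had 3.72%, 6.38% and 5.60% of its copies past 2-fold higher at the 3 days, and the B4 family 2.55%, 4.20% and 5.81%. Past 2-fold lower were 6.75%, 4.49% and 3.40% of B2 and 10.1%, 6.72% and 4.43% of B4 copies.

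Between 1KO and 1KO+1CI, 1.06% of B2_Mm1a copies were past 2-fold higher at day 0, against 4.57% of all listed copies, and 9.85% were past it lower, against 3.69%. At day 2 the shares were 5.61% and 4.24%, against 3.8% and 3.77%. At day 4 they were 3.33% and 5.76%, against 3.39% and 4.2%. The day 0 difference of B2_Mm1a was thus not met at day 2, at which its 1KO and 1KO+1CI means were 2.95 and 2.90 FPKM. With 6 reads per copy in the median, a 2-fold difference in the reads of a single copy lies within the counting interval given above. The cutoff on FPKM + 1 asks for a larger change at low levels.

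**Figure D4:**
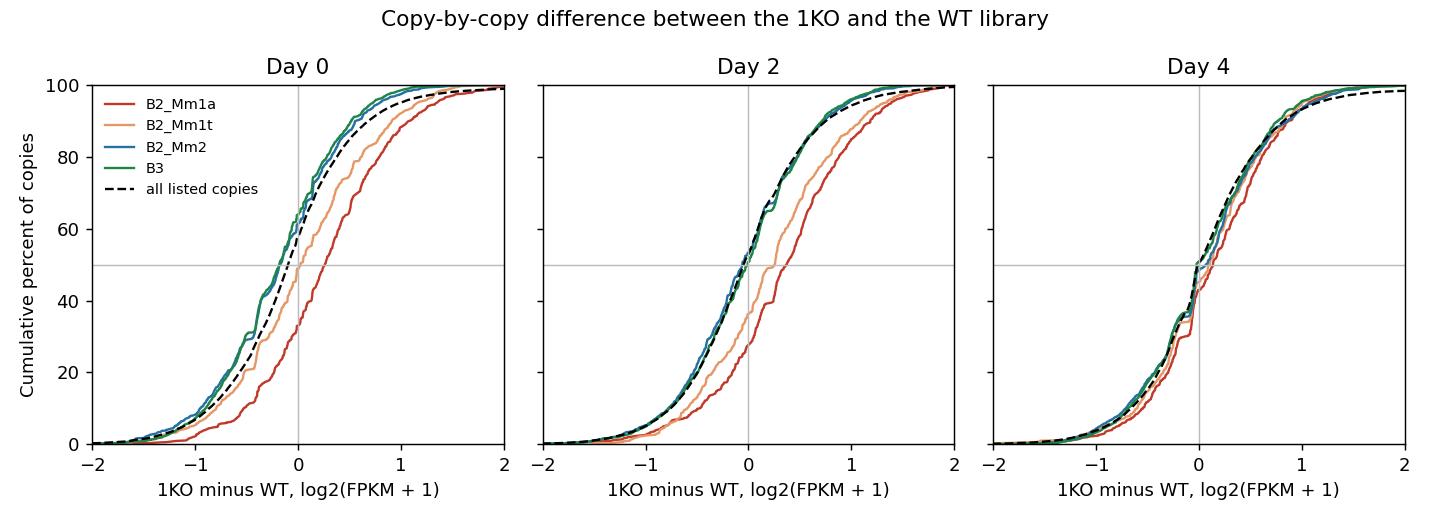
Cumulative percent of copies (vertical axis) against the difference of 1KO minus WT in log2(FPKM + 1) (horizontal axis, shown from −2 to 2) in 3 panels for days 0, 2 and 4; the coloured lines are 4 B2 names and the dashed line is all listed copies. B2_Mm1a has the median farthest to the right in each panel, at 0.26, 0.37 and 0.14, and B2_Mm1t has the next. At day 0 the medians of B2_Mm2 and B3 lie to the left of that of all copies. At day 2 that of B3, −0.01, lies to the right of all copies, −0.05. At day 4 that of B2_Mm2, 0.07, lies to the right of all copies, −0.01.

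The family medians of B2 and B4 were set beside those of all listed copies. The median B2 copy had 1.52, 1.52 and 1.18 FPKM in WT at days 0, 2 and 4, 1.28, 1.65 and 1.37 FPKM in 1KO, with 1.44, 1.65 and 1.18 FPKM for 1KO+1CI cells. The median B4 copy had 1.88, 1.94 and 1.47 FPKM in WT, 1.44, 1.80 and 1.59 FPKM in 1KO, with 1.73, 1.86 and 1.49 FPKM for 1KO+1CI cells. Over all listed copies the median ran from 1.41 FPKM in WT at day 4 to 1.97 FPKM in WT at day 2. The day 2 medians were at or above those of day 0 in each line for B2, B4 and all copies, and within WT the lowest were those of day 4.

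From WT to 1KO the median difference was −0.11, 0.05 and 0.07 for B2 and −0.19, −0.06 and 0.02 for B4 copies on the log2(FPKM + 1) scale at days 0, 2 and 4. For B1 copies it was −0.16, −0.05 and −0.01, and for all listed copies −0.10, −0.05 and −0.01. At day 0 the medians of B2, B4, B1 and all listed copies were all below 0, while those of B2_Mm1a and B2_Mm1t were above it. At days 2 and 4 the B2 median was above 0 and that of all listed copies below it. The 1KO library of day 0 was also the deepest, at 28200000 against 20700000 reads in WT, and its feeder markers summed to about 187 against 95.6 FPKM. Their part in the day 0 medians was not tested. From 1KO to 1KO+1CI the medians were 0.08, −0.01 and −0.08 for B2 and 0.11, −0.01 and −0.02 for B4, beside 0.08, −0.01 and 0.01 for all listed copies.

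Line and day effects on the medians of the 9 libraries were put to exact permutation tests. Line labels were permuted within days and day labels within lines, which gives 36 arrangements and a smallest possible p of 0.0278. For the line effect the exact p was 0.944 for B2 and 0.556 for B4, and for the day effect it was 0.0833 for B2 and 0.139 for B4. With the B1 median of the same library subtracted, the exact p of the line effect was 0.139 for B2 and 0.25 for B4, and that of the day effect 0.917 for B2 and 0.222 for B4. Adjusted over the 8 tests, none was under 0.37. A lone effect at the smallest p would have an adjusted p of 0.222, and 5 of the 8 tests would have to reach it for any to pass, so these tests could hardly make a call. The B2 median minus the B1 median was −0.45, −0.51 and −0.43 in WT and −0.37, −0.37 and −0.39 in 1KO libraries on the log2(FPKM + 1) scale, and these values do not overlap. In the 1KO+1CI libraries it was −0.44, −0.35 and −0.42.

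At single copies, limma called few of the members between lines. From WT to 1KO, 3 of the 8706 copies rose (0.0345%), against 1.12% of all listed copies, and 2 fell (0.0230%), against 0.0599%. At a raw p under 0.05 the counts were 300 higher and 371 lower, or 3.45% and 4.26% of the members beside 4.77% and 4.37% of all copies. From 1KO to 1KO+1CI no member was called in either direction, against 0.00261% of all listed copies higher and 0.00261% lower, and 208 and 183 members had a raw p under 0.05, or 2.39% and 2.10% beside 2.57% and 1.94% of all copies. Without any 1 of the 3 days, in fits with fewer libraries, none of the 5 calls was kept.

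The 3 copies that rose from WT to 1KO included a pair of B2_Mm1a copies. The copy B2_Mm1a_dup942 had 2.48, 1.26 and 2.44 FPKM in WT, 10.4, 5.82 and 9.89 FPKM in 1KO, with 4.07, 4.06 and 4.52 FPKM for 1KO+1CI cells at days 0, 2 and 4. The 3 lines did not overlap, with WT lowest and 1KO highest at each day. The rise in 1KO was 1.66 ± 0.30 (SE) on the log2(FPKM + 1) scale, with an adjusted p of 0.021. The copy B2_Mm1a_dup77 had 3.37, 2.33 and 0.904 FPKM in WT, 8.11, 8.99 and 7.51 FPKM in 1KO, with 5.29, 4.73 and 2.49 FPKM for 1KO+1CI cells. Its order of the lines was the same at each day, and it rose by 1.60 ± 0.31 in 1KO (adjusted p = 0.027). The third, B3_dup2583, lay between 0.214 and 0.253 FPKM in WT, between 0.990 and 2.30 FPKM in 1KO, and between 0.244 and 0.437 FPKM in 1KO+1CI cells. These levels stand for few reads, and those of WT lie near the lowest B2 or B4 value listed, 0.141 FPKM. The lowest recovered count of a B2 or B4 copy in a library was 1 read, as copies without reads are not listed. The difference from 1KO to 1KO+1CI was −0.86, −0.87 and −0.88 for these 3 copies, with adjusted p = 0.995 each. The 3 copies were picked for rising in 1KO, and both comparisons use the 1KO libraries. That choice by itself favours a fall from 1KO to 1KO+1CI.

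Both copies that fell from WT to 1KO were of older names. ID_B1_dup3747 had 13.2, 13.1 and 7.65 FPKM in WT and 3.71, 4.18 and 2.47 FPKM in 1KO cells, and 8.73, 4.50 and 3.54 FPKM in 1KO+1CI cells. It fell by 1.45 ± 0.30 on the log2(FPKM + 1) scale (adjusted p = 0.035). B3_dup2214 had 17.2, 34.8 and 2.60 FPKM in WT, 6.79, 12.1 and 0.479 FPKM in 1KO, with 9.12, 15.0 and 1.60 FPKM for 1KO+1CI cells. It fell by 1.32 ± 0.28 (adjusted p = 0.040), and its day 4 values were the lowest in each line.

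**Figure D5:**
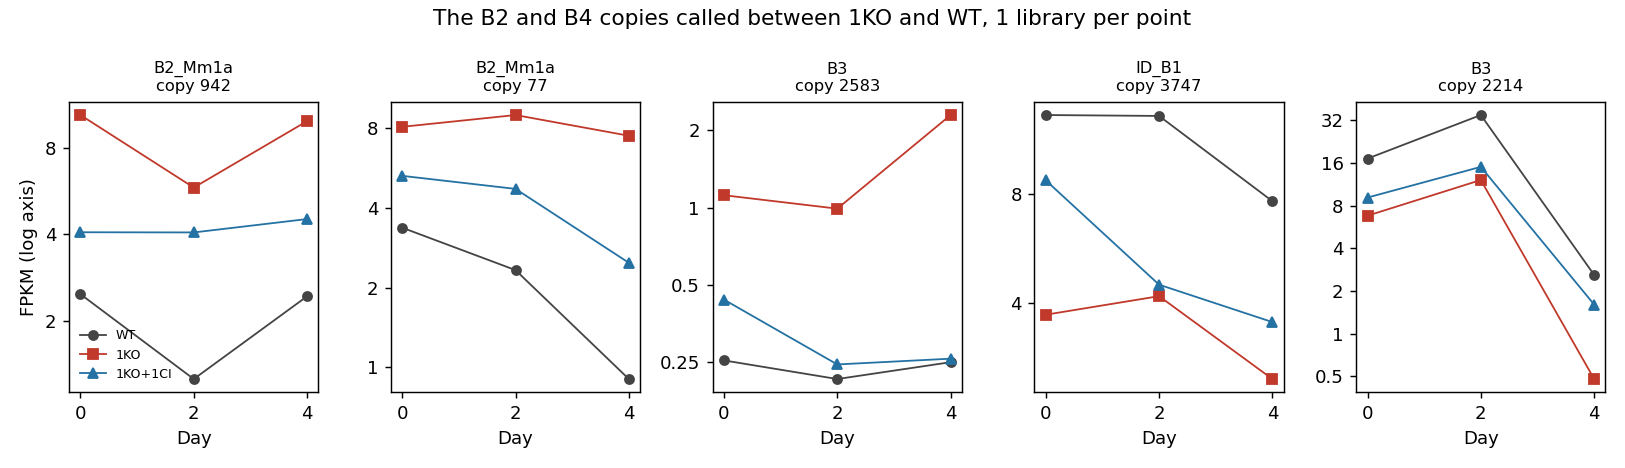
FPKM (vertical axis, log scale, a separate range in each panel) by day (horizontal axis) of the 5 B2 and B4 copies called by limma between 1KO and WT, with 1 library per point and lines joining the days of WT (grey), 1KO (red) and 1KO+1CI (blue). In all 5 panels the 1KO+1CI points lie between or at those of the other lines, and for B2_Mm1a_dup942 they run from 4.06 to 4.52 FPKM, above WT and below 1KO.

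None of the 6 copies of highest level was called in any comparison of lines. B3_dup4295, with a mean of 241 FPKM, was at 275, 312 and 224 FPKM in WT, 235, 248 and 199 FPKM in 1KO, with 253, 233 and 187 FPKM for 1KO+1CI cells, so WT was the highest line at each day. Its difference from WT to 1KO was −0.24 ± 0.12 on the log2(FPKM + 1) scale (adjusted p = 0.60). B3A_dup2069 lay between 115 and 183 FPKM. B2_Mm1a_dup670 ran from 28.3 to 197 FPKM, highest at day 0 in all lines, and at day 4 higher in 1KO (108 FPKM) and 1KO+1CI (154 FPKM) than in WT (41.3 FPKM). In the B4 family, B4A_dup2740 was at 186, 226 and 233 FPKM in WT, 156, 160 and 145 FPKM in 1KO, with 151, 186 and 151 FPKM for 1KO+1CI cells. The WT values lay above the 1KO values without overlap, and the fitted difference was −0.48 ± 0.14 (adjusted p = 0.22). ID_B1_dup2501 lay between 153 and 256 FPKM, and ID_B1_dup778 between 120 and 151 FPKM.

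The day comparisons were made over the 3 lines together. From day 0 to day 4, 10 members rose (0.115%), against 0.43% of all listed copies, and 55 fell (0.632%), against 1.04%. Those that fell included 21 of the 1381 ID_B1 copies, 18 of 1960 B3 copies and 7 of 978 RSINE1 copies. Those that rose included 4 of the 1381 ID_B1 copies and 3 of 1260 B2_Mm2 copies. These names hold many copies, and the counts by name were not tested. From day 0 to day 2, 3 members rose (0.0345%), against 0.0782% of all listed copies, and 2 fell (0.0230%), against 0.0964%. These counts depend on single lines: without WT, 26 members rose by day 4, and without 1KO none rose and 3 fell. None of the 9 names was called between days. Their fitted differences lay between 0.04 and 0.14 from day 0 to day 2 (adjusted p from 0.34 to 0.79), and between −0.10 and −0.00 from day 0 to day 4 (adjusted p from 0.53 to 0.98).

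The copies with the largest changes by day 4 were chosen after their values were seen. B3A_dup2512 had 21.6, 30.3 and 27.5 FPKM in WT, 1KO and 1KO+1CI cells at day 0, 31.4, 15.7 and 15.5 FPKM at day 2, and 1.73, 2.12 and 1.48 FPKM at day 4. It fell by 3.30 ± 0.31 on the log2(FPKM + 1) scale in limma, and the 3 day 4 libraries lay below all others. RSINE1_dup4929 had 2.80, 2.31 and 0.302 FPKM at day 0 and 15.5, 6.97 and 7.43 FPKM at day 4, a rise of 2.03 ± 0.36 (adjusted p = 0.016). Feeder markers fell over the same days, 9 of 9 by day 4. Their part in these copies' changes was not tested.

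The genes for RNA polymerase III, which reads the internal promoter of B2 elements, were not called between lines. Of 26 measured genes for its subunits, its factors and the RNA-binding protein La (*Ssb*), none was called from WT to 1KO or from 1KO to 1KO+1CI, where 3 and 2 had a raw p under 0.05, beside 2267 and 564 of all 15074 genes. Over all genes, limma called 0.71% as higher and 1.15% as lower from WT to 1KO, and 0.00663% higher and 0% lower from 1KO to 1KO+1CI. The median difference of the list from WT to 1KO was 0.03, beside 0.00 for all genes. The lowest was *Polr3gl*, a subunit that has a paralog in *Polr3g*, at −0.67 ± 0.33 (adjusted p = 0.40), and the highest was *Polr1d*, a subunit shared with RNA polymerase I, at 0.31 ± 0.10 (adjusted p = 0.18).

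By day 4, 2 of the 26 genes rose and 3 fell, against 11.3% of all genes higher and 12.3% lower. *Polr3gl* fell by 1.80 ± 0.33 from day 0 to day 4 (adjusted p = 0.0080). It had 11.7, 4.11 and 5.11 FPKM at day 0, and 1.10, 1.84 and 0.576 FPKM at day 4 in WT, 1KO and 1KO+1CI cells. *Maf1*, a repressor of RNA polymerase III, fell by 0.39 ± 0.11 (adjusted p = 0.042), and *Polr3b*, one of the large catalytic subunits, by 0.44 ± 0.11 (adjusted p = 0.022). *Polr1d* rose by 0.48 ± 0.10 (adjusted p = 0.011) and *Polr3k* by 0.55 ± 0.13 (adjusted p = 0.019).

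Chromatin proteins known at SINEs were also not called between lines, 0 of 9 in either comparison, with 1 and 0 at a raw p under 0.05, beside the 2267 and 564 of all 15074 genes. *Ctcf*, whose protein binds B2 copies, was the lowest from WT to 1KO at −0.26 ± 0.08 (adjusted p = 0.15). *Adnp* and *Chd4*, which encode partners in a complex found at B2 copies in ESCs, differed by −0.13 ± 0.09 (adjusted p = 0.57) and by −0.00 ± 0.08 (adjusted p = 1.00). By day 4 *Suv39h1*, a histone H3K9 methyltransferase, rose by 0.71 ± 0.16 (adjusted p = 0.018). Of the 5 genes for DNA methyltransferases and their partner UHRF1, *Dnmt1* was the only one called between lines. *Dnmt3l*, a cofactor of de novo methylation, had 41.3 FPKM in WT and 203 FPKM in both mutant lines at day 0. In WT, 1KO and 1KO+1CI cells it had 144, 286 and 304 FPKM at day 2. At day 4 it had 42.9, 41.0 and 53.7 FPKM, so 1KO was no longer above WT. Its fitted difference from WT to 1KO over the 3 days was 1.07 ± 0.37 (adjusted p = 0.23).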

How the data were processed

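RNA-seq libraries of 3 lines at 3 days were used, 1 per condition. Per the labels and the study's methods, the authors used Trim Galore for trimming, HISAT2 and SAMtools for alignment against mm10, and HOMER to produce the deposited FPKM values of genes and repeat copies. Versions and the strand and multimapping settings were not stated in the sources used here. The files hold no columns of other samples.

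Copies, means over each repeat name, and 15074 genes were fitted in R 4.3.3 with limma 3.58.1 on log2(FPKM + 1). This scale understates changes of low copies. Left out were 21 gene entries with a date-like or missing symbol. The fit held line and day as additive terms (4 residual degrees of freedom) and a variance trend. Benjamini-Hochberg adjustment ran over all copies, names or genes at a threshold of 0.05. No filter was applied beyond that of the deposited values, which hold no copy at 0. Permutation tests were exact and two-sided in effect, since they used F. The reads behind a copy were recovered as whole multiples of a step, found for 94.5% of members within 0.0006 FPKM plus 0.3% of the value. The fit and the step search were also run on simulated data. For the fit, changes were set in both mutant lines alike, so detection of a change in 1KO alone was not tested. Members and lists were chosen with earlier results of these data known. Named copies are the 3 highest of each family and up to 3 called copies in each direction. Alternatives covered pseudocounts, a minimum level, scaling, the variance trend, the threshold, leaving out days or lines and, chosen after seeing the data, a minimum of 10 copies per name and other summaries of B2_Mm1a. Python 3.11.15 was used with numpy 2.4.6, pandas 2.3.3 and scipy 1.17.1.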

Additional observations from a re-analysis of the deposited data

Results flagged for a closer look

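The median differences of both families took opposite signs at different days, and the difference between days was not tested. From WT to 1KO, B2 copies had a median difference of −0.108 at day 0 and 0.0654 at day 4 on the log2(FPKM + 1) scale, and B4 copies −0.189 and 0.0238. From 1KO to 1KO+1CI the values were 0.0778 and −0.0844 for B2, and 0.111 and −0.0167 for B4. No condition held the 4 or more libraries that a search for outlying samples needs.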

How the results depend on the processing

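No paired analysis was possible because each line and day has 1 library and so no replicate numbers to pair, beyond the day term that the fit already holds. For 1KO minus WT, the count of members called higher (3) was 0 without the variance trend and at a threshold of 0.01. The count called lower (2) was 5 with a pseudocount of 0.01, 1 with scaling from repeats, and 0 without the variance trend and at 0.01. Leaving out each day in turn gave 0 to 0 in both directions. For day 2 minus day 0, the 3 called higher became 5 with a minimum of 1 FPKM, 1 with scaling from repeats, and 0 without the trend and at 0.01, and the 2 called lower became 8 with scaling from repeats and 0 without the trend and at 0.01. Without 1 line these counts were 0 to 0 and 0 to 1. For day 4 minus day 0, the 10 called higher became 2 without the trend and 1 at 0.01, and 0 to 26 without 1 line. The 55 called lower became 16 at 0.01 and 3 to 52 without 1 line.

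With pseudocounts of 0.1 and 0.01 the day 0 median difference of 1KO minus WT was −0.21 and −0.22 for B2 and −0.33 and −0.43 for B4, and −0.10 for B4 with scaling from repeats. That of 1KO+1CI minus 1KO was 0.19 and 0.23 for B2 and 0.20 and 0.23 for B4. For 1KO+1CI minus 1KO, 3 names changed sign with scaling from repeats, at −0.0045 for B2_Mm2, −0.0050 for B3A and −0.010 for ID_B1. Leaving out each day in turn, B2_Mm2 ran from −0.035 to 0.065, B3 from −0.015 to 0.065, B3A from −0.020 to 0.064, ID_B1 from −0.0039 to 0.035 and RSINE1 from −0.0022 to 0.063, lowest without day 0. B2_Mm1a in 1KO minus WT ran from 0.25 to 0.39 over its alternatives and stayed uncalled, with adjusted p from 0.33 to 0.75. The cause of these changes was not tested. A single copy rests on 6 reads in the median, which limits the differences detectable at it.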
